A study of Mus musculus with 40 samples.

Results

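The 2 acetyltransferase point mutants were compared directly in haematopoietic stem and progenitor cells of the fetal liver. LSK cells, sorted at E14.5 as lineage marker-negative, SCA1-positive and c-KIT-positive, came from 4 samples labelled Kat6a G656E/G656E with WT Kat6b (Kat6a E/E) and from 4 labelled Kat6b G577E/G577E with WT Kat6a (Kat6b E/E). These 8 libraries, chosen by their genotype labels alone, were part of 40 in the series. WT samples (4) and samples homozygous for both point mutations (4, double mutants) of the same stage and sort entered the model and are given beside them. Whole E9.5 embryos of both single mutant genotypes, 8 in all, were used for 1 comparison. It was fitted across all 24 E9.5 libraries. These also included WT and double mutant embryos and embryos labelled Kat6a cfd/cfd with WT Kat6b or Kat6b dec/dec with WT Kat6a. Both alleles were made by Cas9 mutagenesis on a C57BL/6J background, are present in every tissue and replace 1 amino acid without a change of reading frame, so a change in LSK cells need not have begun in them. Each library was bulk RNA of a sorted sample. The sort is as the labels and the study give it, but the RNA methods of the study speak of fetal liver cell isolates and do not describe it, and Ly6a, the gene of SCA1, was low in all 16 LSK libraries (at most 10.3 CPM). In such data, fewer cells of a type and less RNA per cell cannot be told apart.

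KAT6A (MOZ) and KAT6B (MORF, Querkopf) are paralogous lysine acetyltransferases of the MYST family. Each works in a complex with a BRPF scaffold protein, an ING protein and MEAF6, and the complex acetylates histone H3, with lysine 23 a main target of KAT6A. KAT6A is required for definitive haematopoietic stem cells, and KAT6A fusion proteins occur in acute myeloid leukaemia. LSK cells contain stem cells and multipotent progenitors that give rise to the erythroid, megakaryocytic, myeloid and lymphoid lineages.

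The mutated glycines lie at matching places in the acetyl-CoA binding region of both proteins, and the coding sequence around them is shown to make that correspondence visible. Kat6a lies on chromosome 8 from 23349545 to 23433275 (GRCm39, plus strand), and the codon of the mutated glycine is at 23416459 to 23416461, in exon 13 of 18. Kat6b lies on chromosome 14 from 21531502 to 21722546 (plus strand), and its glycine codon is at 21687681 to 21687683, in exon 12 of 17. The spliced reference sequences run 5′ to 3′, with the glycine codon in capitals, and each crosses 1 exon junction.
Kat6a: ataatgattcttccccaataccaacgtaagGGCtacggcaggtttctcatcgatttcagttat
Kat6b: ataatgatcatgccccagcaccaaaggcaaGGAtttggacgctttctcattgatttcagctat
Of the 63 bases, 46 (73.0%) are identical at the same place in both genes. The Kat6a codon was changed to GAA and the Kat6b codon to GAG, both of which encode glutamic acid. Counts over a whole gene do not show a point mutation, so the genotype labels were not checked by the targeted transcripts.

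Neither targeted gene differed between the mutants. Kat6a was at 184, 172, 180.3 and 184 CPM (the count of a gene scaled to the library total) in the 4 Kat6a E/E libraries and at 186, 174, 128 and 181 CPM in the 4 Kat6b E/E libraries (log2 fold change 0.07, SE 0.105, FDR=0.776). Kat6b was at 40.6, 22.3, 38.0 and 39.6 CPM in Kat6a E/E and at 34.7, 28.4, 23.1 and 38.0 CPM in Kat6b E/E (log2 fold change 0.12, SE 0.110, FDR=0.609). Values of the 2 genotypes overlapped for both genes. Kit, which encodes the c-KIT receptor of the sort, was at 395 to 552 CPM in the 8 libraries. Ly6a, which encodes SCA1, was at 1.69 to 4.45 CPM in Kat6b E/E and at 4.80 to 10.3 CPM in Kat6a E/E, low for a gene of the sort, and was not called (log2 fold change 0.72, SE 0.379, FDR=0.346).

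Assigned counts ranged from 17690587 to 31492230 in Kat6a E/E and from 15649709 to 25312065 in Kat6b E/E. The 8 libraries came from 7 litters, and no litter held both genotypes, so that litter and genotype cannot be told apart. The second Kat6a E/E library stood apart from the other 7, with a mean distance to them of 3.66 against 2.02 to 2.32 (distances as defined for the separation of the genotypes), and with 13683 genes detected against 16082 to 17037. The 3 double mutant libraries of litter 1045 also had fewer genes detected (12600 to 13555). The total and the counts of the main lists are therefore also given without these libraries. By Xist, 1 of 4 libraries was female in each of the 2 genotypes. In Kat6a E/E it was this second library, so sex and its distance cannot be told apart there, and in Kat6b E/E it was the first.

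LSK cells of Kat6a E/E fetuses had higher levels of some genes of the myeloid lineage, including the lysozyme gene Lyz2, the cytokine receptor gene Csf2rb and the transcription factor genes Cebpb and Spi1, than those of Kat6b E/E fetuses. Itga2b, Gfi1b and Gata1, which act in the megakaryocytic or erythroid lineage, were lower in Kat6a E/E. The gene with the smallest p was Dglucy, which was 2.66-fold higher. Most changes were small. Of 13071 genes tested, 270 (2.07%) had a false discovery rate (FDR) under 0.05 and are referred to as called. Of these, 147 (1.12%) were higher and 123 (0.941%) lower in Kat6a E/E. Fold changes had a median size of 0.54 on the log2 scale for genes called higher and of 0.64 for those called lower, 144 of the 270 changed by less than 1.5-fold, and 41 by more than 2-fold. Changes were estimated with limma in a model with 4 surrogate variables (unknown factors estimated from the counts) and litter as a random block, across all 16 LSK libraries. Fold changes therefore differ from the ratio of the CPM values. By the design alone, the second Kat6a E/E library had a weight of 15.1% in this estimate, against 26.7% to 30.0% for the others of Kat6a E/E. Its leverage (how far a library sets its own fitted value) was 0.977, against 0.312 to 0.360 for them. The surrogate variables thus fitted that library almost exactly, and the groups did not count as 4 equal libraries each.

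**Figure D1:**
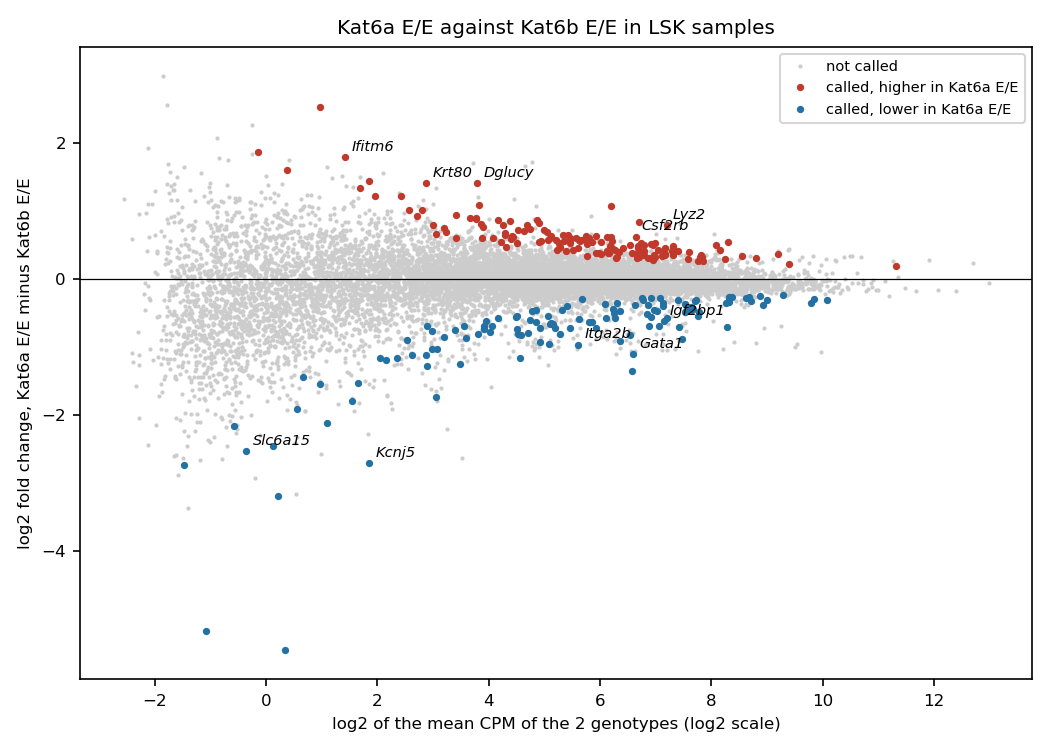
Log2 fold change of Kat6a E/E against Kat6b E/E for 13071 genes, plotted against the log2 of their mean CPM in the 2 genotypes. The 147 genes called higher (red) and the 123 called lower (blue) in Kat6a E/E lay mostly within 2-fold of no change.

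The number of calls depended on the model. Without surrogate variables no gene was called (1358 had an unadjusted p under 0.05), and 4 were by edgeR's quasi-likelihood test. In a model of the 8 libraries alone 5 were called, namely Dglucy, Pld4, Cebpb and Gsdmd, higher in Kat6a E/E, and Itga2b, lower (Gsdmd is named here after its value was seen). With the surrogate variables retained, 821 genes were called without the double mutant libraries of litter 1045 and 268 without the second Kat6a E/E library, but 3 without replicate 1 and 8 without replicate 4 of Kat6a E/E. All 270 genes, or the 268 that were tested, had the same direction in all 27 alternatives. The alternatives share most libraries, so this is not independent support. CPM values, which surrogate variables do not affect, did not overlap between the genotypes for 134 of the 270 called genes, and for 1299 (9.94%) of all genes tested. Of the genes called higher, 89 of 147 had every Kat6a E/E library above every Kat6b E/E library, as had 5.26% of all genes. Of those called lower, 45 of 123 had every Kat6a E/E library below, as had 4.67% of all genes.

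**Figure D2:**
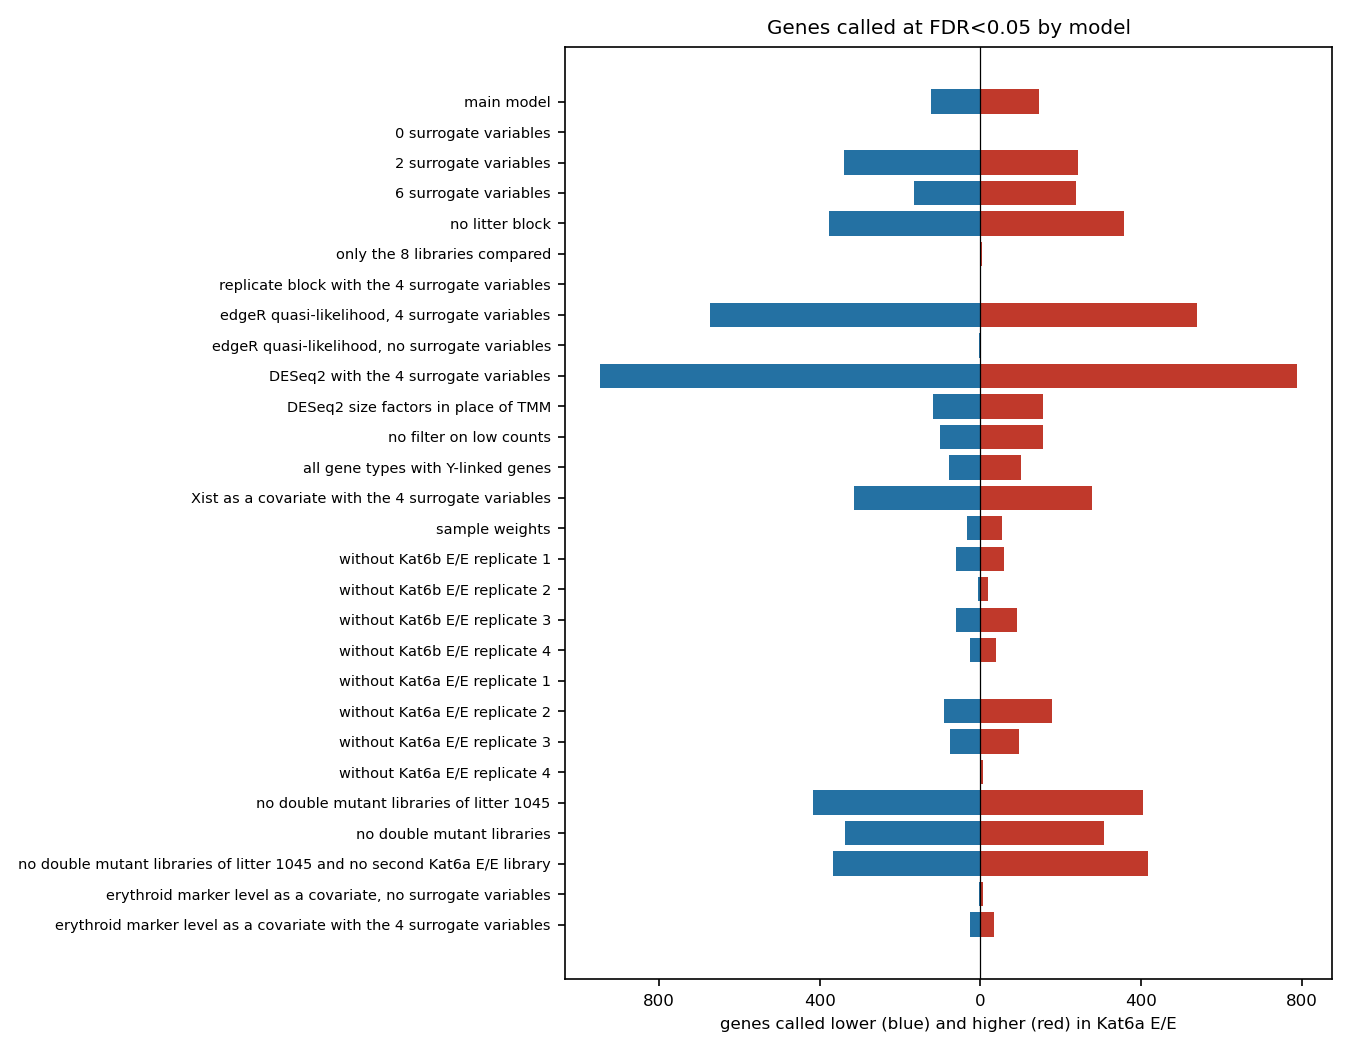
Number of genes called at FDR<0.05 in each model, higher (red, to the right) and lower (blue, to the left) in Kat6a E/E. Counts ran from 0 without surrogate variables to 1735 with DESeq2, against 270 in the main model.

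Dglucy encodes D-glutamate cyclase, a mitochondrial enzyme that converts D-glutamate to 5-oxo-proline. It was at 21.8, 18.7, 20.7 and 23.9 CPM in Kat6a E/E and at 7.38, 5.17, 5.24 and 8.45 CPM in Kat6b E/E. Every Kat6a E/E library was above every Kat6b E/E library. The log2 fold change was 1.41 (SE 0.159, FDR=0.00151). In WT the gene was at 9.58 ± 2.43 CPM (SD, n=4). Dglucy was called in 25 of the 27 alternatives, the most of any called gene that is named. It lies on chromosome 12 from 100745303 to 100863240 (GRCm39, plus strand).

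Of 18 myeloid transcription factor genes tested, 6 were called, all higher in Kat6a E/E (Cebpb, Irf5, Spi1, Cebpa, Irf8 and Id2), and the median log2 fold change of the list was 0.24, against -0.02 for all genes. Cebpb, which encodes a factor of emergency granulopoiesis and macrophage differentiation, was at 87.0, 79.9, 83.2 and 86.2 CPM in Kat6a E/E and at 55.8, 61.2, 51.6 and 54.9 CPM in Kat6b E/E. The 2 groups did not overlap (log2 fold change 0.62, SE 0.0952, FDR=0.0102). Spi1, which encodes PU.1, the ETS factor required for myeloid and lymphoid development, was at 209, 152, 204 and 215 CPM in Kat6a E/E and at 144, 136, 149 and 152 CPM in Kat6b E/E. The second Kat6a E/E library was close to the highest Kat6b E/E library (log2 fold change 0.40, SE 0.0702, FDR=0.0152). Cebpa, the key factor of granulocyte and monocyte progenitors, had a log2 fold change of 0.45 (SE 0.0807, FDR=0.0152). For Irf8, which directs monocyte and dendritic cell development, it was 0.53 (SE 0.113, FDR=0.0317), with the second Kat6a E/E library, at 76.6 CPM, inside the range of Kat6b E/E.

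Of 42 cytokine and chemokine receptor genes tested, 6 were called, all higher in Kat6a E/E (Csf2rb, Ccr2, Cxcr4, Csf1r, Il6ra and Csf2rb2), with a median of 0.24 for the list. Csf2rb encodes the common beta chain of the receptors for GM-CSF, IL-3 and IL-5. It was at 141, 102, 113 and 129 CPM in Kat6a E/E and at 77.5, 76.2, 78.6 and 80.7 CPM in Kat6b E/E, with no overlap (log2 fold change 0.62, SE 0.0746, FDR=0.00151). Csf2rb2, its close paralog with a role in IL-3 binding, was at 20.8, 18.8, 17.9 and 17.8 CPM in Kat6a E/E and at 10.8, 9.11, 10.8 and 13.6 CPM in Kat6b E/E (log2 fold change 0.76, SE 0.142, FDR=0.0187). Reads of these near-identical genes may be split between them, so their separate values are uncertain. The monocyte chemokine receptor gene Ccr2 had a log2 fold change of 0.82 (SE 0.126, FDR=0.0102). Those of Csf1r, the M-CSF receptor gene, and Il6ra, the IL-6 receptor alpha chain gene, were 0.51 (SE 0.0879, FDR=0.0152) and 0.63 (SE 0.112, FDR=0.0152). Of 25 JAK-STAT and feedback genes, Socs2, a feedback inhibitor of cytokine signalling, was the 1 called. It was at 14.8, 15.4 and 16 CPM in 3 Kat6a E/E libraries but at 5.47 CPM in the second, below all 4 Kat6b E/E libraries (7.51 to 9.66 CPM).

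Of 7 genes tested of the phagocyte NADPH oxidase, the enzyme that makes superoxide in neutrophils and macrophages, 4 were called, all higher in Kat6a E/E, and Ncf1, Cybb and Ncf4 were among them. Cybb encodes the catalytic gp91phox subunit and was at 43.4, 33.2, 35.5 and 32.5 CPM in Kat6a E/E and at 20.9, 21.8, 20.5 and 25.8 CPM in Kat6b E/E. The groups did not overlap (log2 fold change 0.87, SE 0.134, FDR=0.0102). Changes of the cytosolic regulators were 0.48 for Ncf1 (SE 0.0693, FDR=0.0102) and 0.57 for Ncf4 (SE 0.103, FDR=0.0154).

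Of 30 granule and lysosome genes tested, 4 were called, all higher in Kat6a E/E (Lyz2, Pld4, Napsa and Anxa1), and the list had a median of 0.44. Lyz2, which encodes lysozyme M, was at 197, 157, 198 and 151 CPM in Kat6a E/E and at 103, 118, 119 and 129.9 CPM in Kat6b E/E (log2 fold change 0.79, SE 0.0922, FDR=0.00151). Pld4, a lysosomal nuclease gene, was at 53.8, 49.8, 53.2 and 52.6 CPM in Kat6a E/E and at 31.6, 32.1, 35.1 and 33.9 CPM in Kat6b E/E, without overlap (log2 fold change 0.65, SE 0.0953, FDR=0.0102). Of 29 phagocyte surface genes, 5 were called, all higher. They were Itgam and Itgb2, which encode both chains of the integrin CR3, Fcer1g, the signalling chain of Fc receptors, and the receptor genes Trem1 and Sirpa. Their log2 fold changes were 0.36 (Sirpa) to 0.66 (Trem1).

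**Figure D3:**
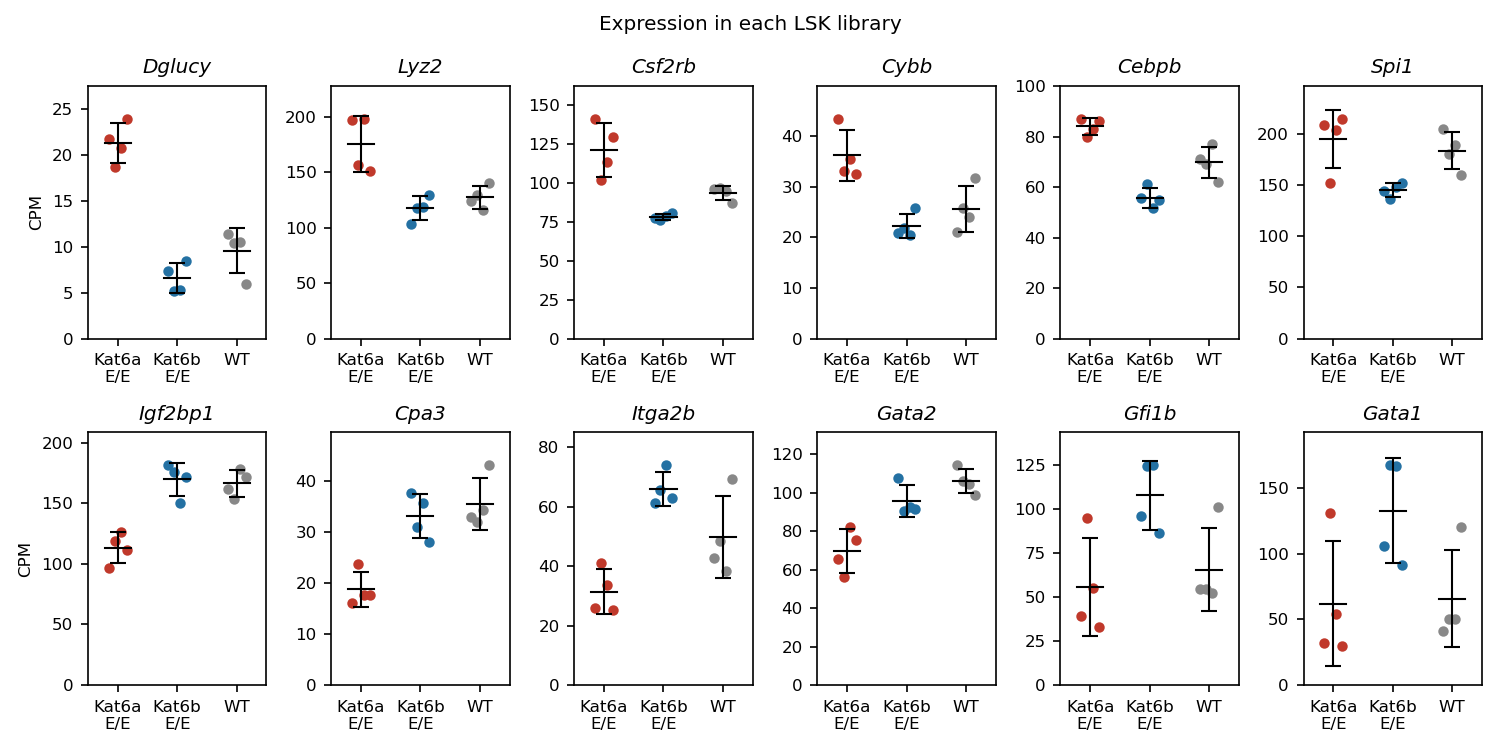
CPM of 12 genes in each Kat6a E/E (red), Kat6b E/E (blue) and WT (grey) LSK library, with the mean and SD (bars, n=4) on axes that start at 0. Kat6a E/E libraries lay above the other groups for Dglucy, and the 4 Kat6b E/E libraries lay above those of Kat6a E/E for Itga2b, Igf2bp1, Cpa3 and Gata2.

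Neutrophil markers were given beside these results as a measure of mature myeloid cells. The summed level of 8 neutrophil marker genes was 259 to 626 CPM in Kat6a E/E (median 477) and 197 to 415 CPM in Kat6b E/E (median 349). Of these markers Ly6g was at 0 in 4 of the 8 libraries and at 0.381 CPM at most. All the other neutrophil markers had log2 fold changes above 0, from 0.59 for S100a8 to 1.75 for Mmp8, and none was called (FDR of 0.102 or more). The 10 macrophage marker genes summed to 47.2 to 106 CPM in Kat6a E/E and to 59.8 to 214 CPM in Kat6b E/E. Ranges of the 2 genotypes overlapped for both lists, and the part of mature cells in the higher myeloid genes was not tested.

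Several genes called higher were neighbours. On chromosome 15 (GRCm39), Ncf4 (78128982 to 78146784, plus strand), Csf2rb2 (78166707 to 78189921, minus strand), Csf2rb (78209952 to 78238047, plus strand) and C1qtnf6 (78407546 to 78415616, minus strand) were all called higher, with starts 37.7, 43.2 and 198 kb apart. On chromosome 7, Ifitm2 (140534738 to 140536228), Ifitm1 (140546316 to 140549743) and Ifitm6 (140595612 to 140597837) were likewise all higher. Within 10 Mb of the targeted genes, Kbtbd11 (8.29 Mb from Kat6a) was called higher and Adk (0.429 Mb from Kat6b) lower in Kat6a E/E.

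Promoters of genes that moved together are shown to place the sequence beside the values. The motif GAGGAA, a purine-rich core bound by ETS factors such as PU.1, was sought on both strands in windows of 250 bases before to 50 bases after RefSeq gene starts (GRCm38.p6). A GATA site was sought in the same windows and spelled AGATAA. The terms ETS core and GATA site stand here for these spellings alone. Overlap between the motifs was not examined. Among genes with a promoter in the table, the ETS core was present for 55 of 111 genes called higher (49.5%), for 28 of 100 called lower (28%) and for 3216 of 10546 tested (30.5%). The GATA site was present for 10 of 111 (9.01%), 12 of 100 (12%) and 878 of 10546 (8.32%). The windows of Csf2rb2 (chr15:78305672-78305971, minus strand) and Cybb (chrX:9469275-9469574, minus strand), both higher in Kat6a E/E, and of Itga2b (chr11:102469834-102470133, minus strand) and Cpa3 (chr3:20242132-20242431, minus strand), both lower, read as follows 5′ to 3′, with either motif, or its reverse complement, in capitals.
Csf2rb2: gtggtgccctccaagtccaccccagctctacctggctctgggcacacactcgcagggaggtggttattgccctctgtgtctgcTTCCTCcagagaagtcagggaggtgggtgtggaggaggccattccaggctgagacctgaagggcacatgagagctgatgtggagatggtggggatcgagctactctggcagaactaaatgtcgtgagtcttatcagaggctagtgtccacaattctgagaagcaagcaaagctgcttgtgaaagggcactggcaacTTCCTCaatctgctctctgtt
Cybb: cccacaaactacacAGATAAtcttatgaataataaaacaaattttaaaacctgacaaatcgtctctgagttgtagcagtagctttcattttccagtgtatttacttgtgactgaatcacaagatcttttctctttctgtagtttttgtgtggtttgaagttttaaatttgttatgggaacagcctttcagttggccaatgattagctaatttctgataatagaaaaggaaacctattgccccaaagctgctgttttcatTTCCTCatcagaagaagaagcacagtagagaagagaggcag
Itga2b: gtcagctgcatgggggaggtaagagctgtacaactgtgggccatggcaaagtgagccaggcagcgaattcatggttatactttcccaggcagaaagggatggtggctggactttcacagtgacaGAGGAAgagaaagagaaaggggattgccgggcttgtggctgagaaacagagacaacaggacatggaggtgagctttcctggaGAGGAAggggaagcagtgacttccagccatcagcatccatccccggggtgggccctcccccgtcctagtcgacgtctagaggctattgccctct
Cpa3: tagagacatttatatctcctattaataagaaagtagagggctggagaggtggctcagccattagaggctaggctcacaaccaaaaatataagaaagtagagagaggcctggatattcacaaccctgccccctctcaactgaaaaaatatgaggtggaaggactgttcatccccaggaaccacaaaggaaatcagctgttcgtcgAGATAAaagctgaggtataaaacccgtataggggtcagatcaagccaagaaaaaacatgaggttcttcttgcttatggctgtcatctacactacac
Csf2rb2 held the ETS core at 2 places and no GATA site, Cybb held 1 of each, Itga2b held the ETS core at 2 places and no GATA site, and Cpa3 held the GATA site alone. The windows of Dglucy and Lyz2, both higher, and of Gfi1b, lower, held neither spelling. Other spellings of ETS and GATA sites were not sought, so the windows cannot be said to lack such sites. These matches are descriptions of letters and not binding sites.

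Of 42 innate sensing genes tested, 5 were called, all higher (Irf5, Cd180, Casp1, Unc93b1 and Aim2). Irf5, a transcription factor downstream of Toll-like receptors that was also on the myeloid list, was at 52.8, 30.8, 43.5 and 46.3 CPM in Kat6a E/E and at 30.4, 22.9, 26.6 and 26.1 CPM in Kat6b E/E (log2 fold change 0.63, SE 0.103, FDR=0.0140). Casp1, which encodes the protease of inflammasomes, had a change of 0.88 (SE 0.181, FDR=0.0267), and Aim2, a cytosolic DNA sensor gene, one of 0.42 (SE 0.0991, FDR=0.0414). Of 54 interferon-induced genes, 3 were called, all higher. They were the guanylate-binding protein gene Gbp3 (log2 fold change 1.08, SE 0.180, FDR=0.0140) and the membrane protein genes Ifitm1 (1.07, SE 0.177, FDR=0.0154) and Ifitm2 (0.41, SE 0.101, FDR=0.0499). Gbp3 was at 20.7, 20.4, 17.8 and 20.3 CPM in Kat6a E/E and at 9.37, 5.47, 9.40 and 10.3 CPM in Kat6b E/E, with no overlap. Of 21 cytokine and chemokine genes, Ccl9 alone was called (0.57, SE 0.131, FDR=0.0394). None of the 17 antigen presentation genes was called, although 6 had an unadjusted p under 0.05 with higher values and 1 with lower values. Of all genes tested, 2.07% were called and 17.5% had an unadjusted p under 0.05.

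Of 20 megakaryocyte and platelet genes tested, Itga2b and Gp5 were called lower in Kat6a E/E and 18 were not called. Fold changes were below 0 for 16 and above 0 for 4, with a median of -0.75, against 7238 below and 5833 above for all genes. Itga2b encodes the integrin chain CD41 of platelets and early haematopoietic progenitors. It was at 25.9, 41.1, 33.6 and 25.1 CPM in Kat6a E/E and at 61.3, 65.7, 73.9 and 62.9 CPM in Kat6b E/E, so that the highest Kat6a E/E library was below the lowest Kat6b E/E library (log2 fold change -0.97, SE 0.163, FDR=0.0152). Gp5, a subunit gene of the von Willebrand factor receptor, had a change of -1.28 (SE 0.275, FDR=0.0314).

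All 24 erythroid genes tested had fold changes below 0, with a median of -0.98, but only Gata1 was called (14 had an unadjusted p under 0.05). Of all 13071 genes tested, 7238 had fold changes below 0 and 2293 (17.5%) an unadjusted p under 0.05 with limma. Gata1, the master regulator of erythroid and megakaryocytic differentiation, was at 31.6, 131, 54.0 and 30.0 CPM in Kat6a E/E and at 105, 167, 167 and 91.1 CPM in Kat6b E/E. The second Kat6a E/E library lay within the range of Kat6b E/E, the other 3 below it (log2 fold change -1.11, SE 0.230, FDR=0.0423). The globin genes varied widely between libraries, and their log2 fold changes, between -0.59 for Hbb-bh1 (SE 0.697) and -1.50 for Hbb-y (SE 1.23), did not pass the threshold.

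Markers of other cell types were summed in each library. Summed over 8 erythroid markers, the level was 510 to 6889 CPM in Kat6a E/E (median 1645, the highest value that of the second library) and 1893 to 5534 CPM in Kat6b E/E (median 4938), against a median of 1462 CPM in WT. For 8 megakaryocyte markers it was 21.5 to 45.1 CPM (median 25.5) and 43.3 to 96.8 CPM (median 55.0). For 6 B cell markers it was 44.0 to 72.6 CPM in Kat6a E/E and 73.8 to 94.6 CPM in Kat6b E/E, without overlap. With the summed erythroid marker level as a further covariate beside the surrogate variables, which was chosen after seeing the data, 60 genes were called (35 higher, 25 lower), and the erythroid list had a median of -0.40 with no gene called. The myeloid granule list had a median of 0.64 with 4 genes called in that model. T and NK cell, mast cell, endothelial, stromal and hepatoblast marker sums overlapped between the genotypes.

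**Figure D4:**
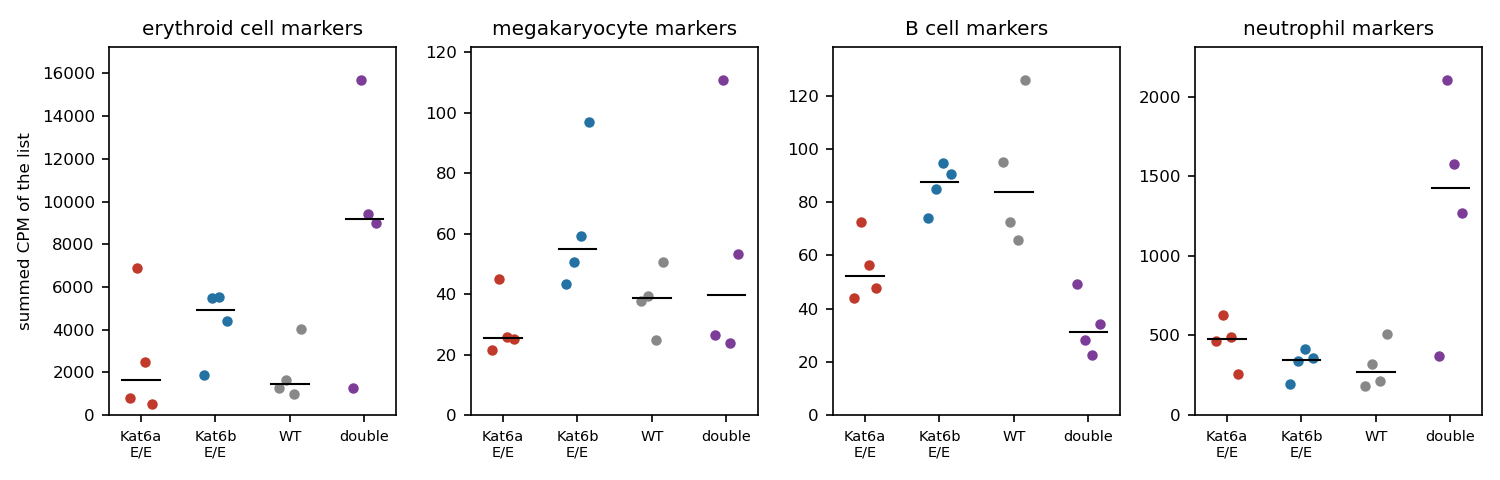
Summed CPM of erythroid (8 genes), megakaryocyte (8), B cell (6) and neutrophil (8) markers in each LSK library of the 4 genotypes, with the group median as a line. Kat6b E/E medians were above those of Kat6a E/E for the first 3 lists and below for neutrophil markers.

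Of 19 transcription factor genes of haematopoietic stem cells, 3 were called, all lower in Kat6a E/E. These were Gfi1b, a repressor needed for erythroid and megakaryocytic cells, Gata2, a regulator of stem cell maintenance, and Tal1, a master factor of blood formation. Gata2 was at 65.5, 56.0, 82.3 and 75.4 CPM in Kat6a E/E and at 108, 90.7, 92.6 and 91.3 CPM in Kat6b E/E (log2 fold change -0.47, SE 0.0896, FDR=0.0198). The groups did not overlap. Gfi1b was at 39.3, 94.8, 54.9 and 32.8 CPM in Kat6a E/E and at 96.2, 124, 125 and 86.5 CPM in Kat6b E/E, with the second Kat6a E/E library again inside the range of Kat6b E/E (log2 fold change -0.91, SE 0.155, FDR=0.0154). Tal1 had a change of -0.55 (SE 0.104, FDR=0.0203). The 3 genes also act in erythroid or megakaryocytic cells, and the list as a whole had a median of -0.02. Of 16 stem cell surface genes, Itga2b was the 1 called.

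Among other genes called lower were Igf2bp1, Peg12 and Cpa3. Igf2bp1, an mRNA-binding protein gene of the fetal programme, was at 96.2, 119, 126 and 112 CPM in Kat6a E/E and at 181, 176, 151 and 171 CPM in Kat6b E/E, the lower gene with the smallest p (log2 fold change -0.62, SE 0.0957, FDR=0.0102). Arid3a, on the same list of 13 genes, was higher (0.26, SE 0.0589, FDR=0.0358), and no other member was called. Peg12, a paternally expressed gene, was at 5.88, 5.64, 9.09 and 6.84 CPM in Kat6a E/E and at 18.8, 13.9, 15.8 and 13.5 CPM in Kat6b E/E (log2 fold change -1.25, SE 0.193, FDR=0.0102). Cpa3 encodes mast cell carboxypeptidase, which is also expressed in early progenitors. It was at 16.1, 23.8, 17.6 and 17.7 CPM in Kat6a E/E and at 37.7, 31.0, 35.8 and 28.1 CPM in Kat6b E/E (log2 fold change -0.80, SE 0.134, FDR=0.0142), and was the 1 called of 13 mast cell and basophil genes. Kcnj5, a potassium channel gene, had one of the largest changes among the named genes (-2.71, SE 0.480, FDR=0.0152), from 0.339 to 3.14 CPM in Kat6a E/E against 4.95 to 6.97 CPM in Kat6b E/E.

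The counts of these lists rose or fell with the libraries used, and the calls over all genes also changed. Those numbered 268 of 13205 without the second Kat6a E/E library and 821 of 13808 without the double mutants of litter 1045. They numbered 3 of 13224 without replicate 1 and 8 of 13215 without replicate 4 of Kat6a E/E, against 270 of 13071 in the main model. Without the second Kat6a E/E library, calls numbered 13 of 30 for granule and lysosome genes, 7 of 29 for phagocyte surface genes, 3 of 7 for oxidase genes, 7 of 18 for myeloid factors, 7 of 42 for receptors, 5 of 42 for innate sensing and 3 of 54 for interferon-induced genes, all higher. In the same model 2 of 24 erythroid, 2 of 20 megakaryocyte and 3 of 19 stem cell factor genes were lower. Without the double mutants of litter 1045, those called higher numbered 13, 12, 5, 7, 9, 8 (of 43) and 6 for the first 7 lists in that order, with 2 receptor genes and 1 interferon-induced gene lower. Erythroid, megakaryocyte (of 21) and stem cell factor genes then held 7, 5 and 4 lower calls, and 1 stem cell factor gene was higher. The counts were lost in other models. Without replicate 1 of Kat6a E/E, 1 granule and lysosome gene and 1 receptor gene were called and none of the other 8 lists held a call. Without replicate 4, calls were 2 granule and lysosome, 1 oxidase and 1 receptor gene. Over the 27 alternatives, calls ran from 0 to 16 for granule and lysosome genes, from 0 to 14 for erythroid genes and from 0 to 10 for megakaryocyte genes. Over all genes they ran from 0 to 1735.

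Other groups held few or no calls. None of 17 genes of the KAT6 complexes and MYST family was called, nor any of 6 cyclin-dependent kinase inhibitor genes, 25 replication and mitosis genes or 12 Hox genes. Of all genes tested 2.07% were called, a share at which lists this short may each hold no call. Of the Hox genes, 1 had an unadjusted p under 0.05, namely Hoxb4 (0.96, SE 0.249, FDR=0.0556), against 17.5% of all genes tested. In the replication and mitosis list 23 of 25 fold changes were below 0, with a median of -0.07, against 7238 of 13071 for all genes. The 25 lymphoid progenitor genes tested had a median of -0.24. Rag1, a recombinase gene of early lymphoid progenitors, had a fold change of -1.27 (SE 0.299, FDR=0.0543) with no overlap of the groups.

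**Figure D5:**
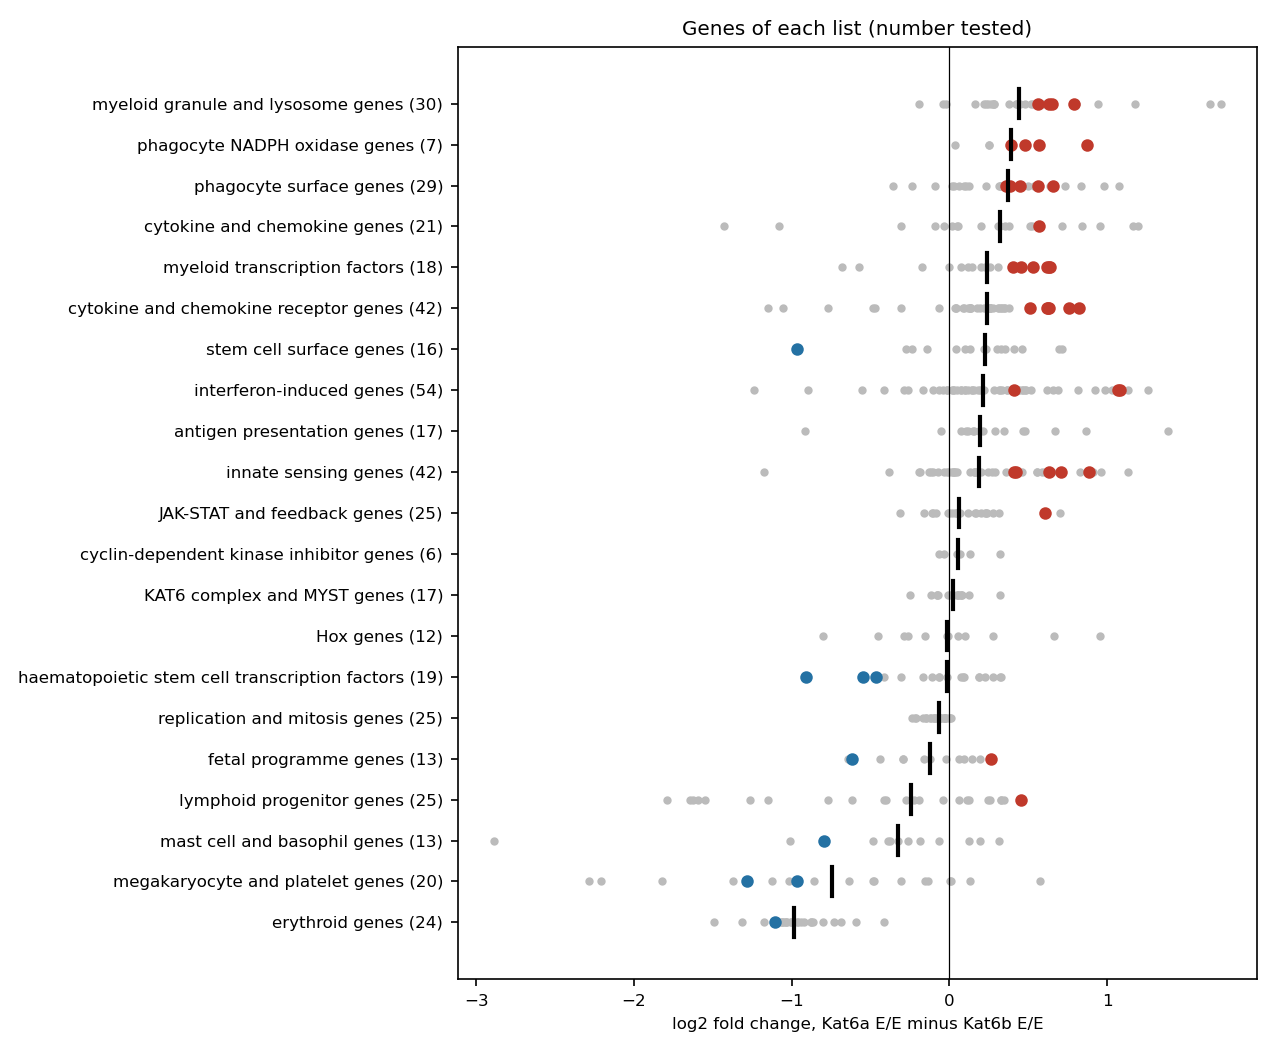
Log2 fold change of Kat6a E/E against Kat6b E/E for each tested gene of 21 lists (number tested in brackets), with genes called higher in red, called lower in blue, others in grey, and the list median as a black line. Medians ran from -0.98 for erythroid genes to 0.44 for myeloid granule and lysosome genes.

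Each mutant was set beside WT to show on which side a difference lay. These comparisons use the libraries of the direct comparison and are not independent of it. The WT libraries came from 2 litters, and litter 753 also held replicate 1 of Kat6a E/E. Against WT, 178 genes (1.36%) were called for Kat6a E/E, whereas 0 were for Kat6b E/E, where 364 (2.78%) had an unadjusted p under 0.05 with limma. That a gene passed in the one and not in the other does not show that the effects differ, for which the direct comparison is the test. Genes called higher in the direct comparison had a median log2 fold change against WT of 0.34 in Kat6a E/E, with -0.18 for Kat6b E/E, and genes called lower one of -0.40 and 0.20. For Dglucy, the change against WT was 1.27 in Kat6a E/E, with -0.14 for Kat6b E/E. For Igf2bp1 it was -0.62 in Kat6a E/E (FDR=0.00353) and 0.00118 in Kat6b E/E. Cebpb lay on both sides, at 0.32 in Kat6a E/E (FDR=0.0600) and -0.30 in Kat6b E/E. For Gata1 the values were -0.62 (FDR=0.205) and 0.48. Its CPM, without surrogate variables, was 61.7 ± 47.5 in Kat6a E/E, 65.5 ± 36.9 in WT and 132.5 ± 40.0 in Kat6b E/E (mean ± SD, n=4). By mean CPM Kat6a E/E was thus near WT, and the side of the difference depended on the measure.

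The called genes were then read in libraries of other samples. Between double mutant and WT LSK samples no gene was called with limma (896, or 6.85%, had an unadjusted p under 0.05). In the model of all 16 libraries, 259 of the 270 called genes had the same sign there, against 69.8% of all genes. In that model the first double mutant library carried a weight of -15.3% in the estimate between the single mutants, so the comparisons are not separate. Double mutant libraries had leverages of 0.918 to 0.998, against 0.251 to 0.289 for WT, so the surrogate variables took up most of their values. When each pair of genotypes was fitted on its own 8 libraries without surrogate variables, 137 of 268 called genes (51.1%) had the same sign, against 44.1% of all 12483 genes. By direction it was 87 of 147 for genes called higher and 50 of 121 for genes called lower. The share with the same sign thus changed with the surrogate variables.

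In E9.5 embryos limma called no gene between the single mutants (700 of 14183, 4.94%, had an unadjusted p under 0.05). Of the 234 called LSK genes that were tested there, 151 (64.5%) had the same sign, against 51.7% of all genes, and 18 had an unadjusted p under 0.05. The median change along the LSK direction was 0.03, against 0.57 in LSK. Dglucy, Ccr2 and Cybb were not tested at E9.5 because of low counts. Embryos had been selected for similar external appearance. Whole embryos contain few blood progenitors, and the stage and tissue differ together.

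The 8 libraries were also compared as whole profiles. For each pair, the distance was the quadratic mean of the log2 differences of the 500 genes that differed most. The mean distance was 2.49 between and 2.23 within the genotypes (2.66 within Kat6a E/E and 1.80 within Kat6b E/E). The excess of 0.263 had a one-sided exact permutation p of 0.0571, where 0.0286 is the smallest this design allows. The permutation took no account of litter, although Kat6b E/E replicates 2 and 3 were littermates. Without the second Kat6a E/E library, the excess was 0.369 (exact permutation p=0.0286). Without 1 of the Kat6b E/E libraries it was smaller, at 0.0645 (replicate 2, exact permutation p=0.429), 0.0740 (replicate 3, exact permutation p=0.429), 0.151 (replicate 4, exact permutation p=0.343) and 0.194 (replicate 1, exact permutation p=0.229), and the genotypes were not separated beyond the spread between libraries in any of these.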

How the data were processed

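Bulk RNA-sequencing of polyadenylated RNA (TruSeq v2, unstranded, paired-end) was used. The authors aligned reads to mm39 and deposited counts of reads per RefSeq gene from featureCounts (version not given in the sources used here), neither normalized nor filtered. The files hold 26411 genes, and 26359 matched a RefSeq table (GRCm38.p6) used for gene types.

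As in the published methods, genes that code for protein and are not Y-linked were filtered with filterByExpr and TMM-scaled, and fitted with 4 surrogate variables (wsva), voomLmFit, litter as a random block (correlation 0.331) and robust moderation (R 4.3.3, edgeR 4.0.16, limma 3.58.1). The FDR was computed by the Benjamini-Hochberg method over every gene tested. The labels do not say whether samples were pooled. The procedure was tested on simulated data.

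Named genes were Kat6a, Kat6b, Kit, Ly6a, the 15 called genes with the smallest p in each direction, the called members of the gene lists and up to 4 of smallest p in each list; some are given as counts or medians only. Comparisons, members and gene lists were chosen with earlier results of these data known. Alternatives were other numbers of surrogate variables, no litter block, replicate number as a block, the 8 libraries alone, edgeR, DESeq2 1.42.0, other scaling, filters, gene types, covariates and weights, and omission of each library. Positions came from GENCODE vM39 on GRCm39, and sequences at the codons from its transcripts. Promoters came from RefSeq. Overlapping and antisense genes were not resolved. Some genes covered by the rule for named genes are not reported here.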

Additional observations from a re-analysis of the deposited data

Results flagged for a closer look

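Among 154 sets of 4 values examined (named genes, marker sums, genes detected and mean distances in each genotype), 9 held 1 library whose gap to its nearest neighbour exceeded the 95% critical value of Dixon's test, a share near the 1 in 20 that chance gives. The second Kat6a E/E library accounted for 4, with low Kat6b (22.3 CPM) and Socs2 (5.47 CPM), high Phf10 (254 CPM) and few genes detected (13683). The third Kat6a E/E library was low for Gbp3 (17.8 CPM), and the first was high for Ncf4 (62.7 CPM) and for the summed hepatoblast markers (281 CPM). The first Kat6b E/E library was high for Gata2 (108 CPM) and low for the hepatoblast markers (103 CPM). No named gene had the groups fully apart in opposite directions in LSK cells and E9.5 embryos.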

How the results depend on the processing

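Genes called in LSK numbered 582 with 2 surrogate variables (243 higher and 339 lower in Kat6a E/E), 405 with 6 (239 and 166), 736 without the litter block (359 and 377), 593 with Xist as a covariate (279 and 314), 85 with sample weights (53 and 32) and 178 with all gene types (101 and 77). They numbered 0 without surrogate variables (0 and 0), 5 in the 8 libraries alone (4 and 1), 1213 by edgeR's quasi-likelihood test (540 and 673), 4 by that test without surrogate variables (1 and 3) and 1735 by DESeq2 (789 and 946). Added after seeing the data were fits without the double mutants of litter 1045 (821, of which 404 and 417), without any double mutants (643, 307 and 336), without those of litter 1045 and the second Kat6a E/E library (783, 417 and 366), and with erythroid marker level as a covariate without (12, 8 and 4) and with surrogate variables (60, 35 and 25). Omission of 1 library gave 3 to 268 calls (3 to 178 higher, 0 to 90 lower). DESeq2 size factors (275) and no filter on low counts (254) stayed within 1.5 times. The cause of these differences was not tested.

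Replicate numbers did not pair the samples (correlations of the same-numbered deviations were 0.0236, 0.285, -0.117 and 0.168). With the replicate block, 2 genes were called (2 higher, 0 lower).

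Calls against WT in Kat6a E/E numbered 3, 50 and 33 with 0 or 2 surrogate variables and without the litter block. In double mutants they numbered 1, 2 and 22 with 0, 2 and 6. The called genes with the same sign in double mutants fell to 141 without surrogate variables and to 138 when double mutants and WT were fitted alone (137 of the 268 that the single mutant fit also tested). At E9.5, 2 genes were called with 6 surrogate variables. The excess distance was 0.447 after removal of surrogate variables (exact permutation p=0.0286), 0.0864 over all genes, and 0.0645 to 0.503 with 1 library omitted.

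Over 27 alternatives, no named gene that was called reversed. Of 60, 48 passed in at least 15. Uncalled genes near 0 reversed. Kat6a was at -0.0113 to 0.131 with 1 library omitted. Kat6b was at -0.0112 with erythroid level and no surrogate variables. Kit was at -0.0157 with 6 surrogate variables, -0.00670 with sample weights, -0.0195 to 0.0869 with 1 library omitted and -0.0239 with erythroid level and no surrogate variables.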

Other observations

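Some gene families outside the lists were read after their values had been seen. Of 20 cytosolic aminoacyl-tRNA synthetase genes, all tested, every fold change was below 0, with a median of -0.18, and Iars1 (-0.26, SE 0.0591, FDR=0.0362) and Gars1 (-0.27, SE 0.0614, FDR=0.0375) were called lower in Kat6a E/E. Of all genes tested, 7238 of 13071 were below 0. All 20 synthetase genes were below 0 in each of the 27 alternatives, which share libraries, with medians of -0.24 to -0.12.

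The 3 Id genes tested, which encode inhibitors of basic helix-loop-helix factors, were all called higher in Kat6a E/E. Id3 had a log2 fold change of 0.79 (SE 0.150, FDR=0.0188), Id2 one of 0.64 (SE 0.151, FDR=0.0431) and Id1 one of 0.57 (SE 0.138, FDR=0.0466), and for each the 4 Kat6a E/E libraries lay above the 4 Kat6b E/E libraries. Of 9 annexin genes, Anxa1, Anxa2 and Anxa6 were called higher. Of 7 Ms4a genes, Ms4a6c and Ms4a6b were called higher, and of 6 Ifitm genes, Ifitm6, Ifitm1 and Ifitm2.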
